A study of Homo sapiens with 8 samples.

Results

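The genes described here are 45 that carry a cell from late G1 into S phase and copy its DNA, out of 18377 genes read from the arrays. They were chosen by name, for what their proteins do, and each is represented by 1 probe set, the brightest on average of those assigned to that gene and no other. All 45 had such a probe set, UHRF1 alone had more than 1, and all passed the limit on low signal in every comparison. The cells were A549, an established line from a human lung adenocarcinoma, grown until confluent and held at an air-liquid interface. The PCA pollutants were photochemically altered, that is an aged urban mixture given in the evening for 4 hours, and the evening control cells stood in humidified incubator air over the same hours. The primary pollutants were the fresh urban mixture, given in the morning for 4 hours, and the morning control cells were kept in the same way beside them. RNA was taken 9 hours after exposure and hybridised to 8 Human Gene 1.0 ST arrays, 2 for each of the 4 groups. Mixture, time of day and exposure run cannot be told apart, the cells are 1 tumor line, and both arrays of a group come from 1 exposure period, so each p-value measures only the spread within runs.

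Before S phase, cyclin E with its kinase releases the E2F transcription factors from the retinoblastoma protein, and E2F then drives many of the genes that replication needs. ORC, CDC6 and CDT1 load the MCM2-7 helicase onto origins, CDC45, the GINS complex and MCM10 turn that helicase on, and the polymerases extend from primers with the PCNA clamp, fed by enzymes that make deoxynucleotides. Most of these genes peak in transcription around the G1/S boundary and are low in resting cells. In RNA from a whole culture, fewer cells in S phase and less RNA per cell cannot be told apart. The paper reports more cell death, by release of lactate dehydrogenase, after PCA than after primary pollutants. Its part in the values below was not tested.

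Because E2F is the factor these genes are known to share, its site is shown in the promoters of 6 genes described below, from RefSeq on GRCh38.p14. The E2F site was searched as TTTCCCGC, TTTGGCGC, TTTCGCGC or TTTGCCGC on both strands, in windows from 250 bases before to 50 after each transcription start. A match was found in 24 of the 40 members that have a window (60%). The share was 3.99% of all 27305 genes with a window, which are not limited to the genes of the arrays. Many members are known E2F targets, so a high share can come with their choice, and no test of it was run. The share was 32.4% (11 of 34) for the other replication genes described below and 11.5% (3 of 26) for G2 and M phase genes. Each sequence runs 5′ to 3′ on the transcribed strand, with the matches in capitals, and the first 3 belong to genes with higher mean signal in PCA pollutants and the last 3 to genes with lower mean signal there.
CDC6, plus strand, chr17:40287846-40287905: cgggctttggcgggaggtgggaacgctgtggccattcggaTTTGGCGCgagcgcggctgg
E2F1, minus strand, chr20:33686386-33686458: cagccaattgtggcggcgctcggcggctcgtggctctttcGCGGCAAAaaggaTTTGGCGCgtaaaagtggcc
GINS2, minus strand, chr16:85688966-85689025: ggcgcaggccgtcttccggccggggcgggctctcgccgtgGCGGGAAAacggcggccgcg
PCNA, minus strand, chr20:5126662-5126721: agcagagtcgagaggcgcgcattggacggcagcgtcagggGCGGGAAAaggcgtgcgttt
TYMS, plus strand, chr18:657574-657633: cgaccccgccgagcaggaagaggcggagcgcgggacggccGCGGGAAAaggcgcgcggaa
GMNN, plus strand, chr6:24775293-24775352: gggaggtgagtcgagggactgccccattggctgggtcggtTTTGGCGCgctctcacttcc
The match in CDC6 begins at base 8 of the transcript, and those of the other promoters printed lie before the start, the farthest at 80 bases in GMNN. The spelling TTTGGCGC stands in CDC6, E2F1 and GMNN, and GCGGGAAA, which is TTTCCCGC on the other strand, in GINS2, PCNA and TYMS. Both of these spellings thus stand in genes with higher and in genes with lower mean signal in PCA pollutants. The difference of GINS2 was small, at 0.19 ± 0.0882 (SE, limma, Benjamini-Hochberg adjusted p = 0.151). E2F1 also holds GCGGCAAA, which is TTTGCCGC on the other strand and is in none of the other sequences printed. The windows of MCM10 and PRIM1 held no match, which says only that these letters are not in these windows.

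Compared with the evening control, PCA pollutants called none of the 45 genes at a Benjamini-Hochberg adjusted p under 0.05 (limma, over all probe sets tested) and a fold change of at least 1.5. Of all 17470 genes tested, 3.53% were called, 0.876% higher and 2.66% lower. The member median was -0.0213 on the log2 scale, against -0.00169 over all genes, with 21 members above 0 and 24 below, where 50.3% of all genes were below. Both PCA pollutant arrays were above both evening control arrays for 15 members and below both for 19, close to the 31.7% and 36.6% of all genes. Without the fold limit, 7 of the 45 passed the adjusted p (19.9% of all genes), 3 higher (CDC6, MCM10 and E2F1) and 4 lower (PRIM1, TYMS, PCNA and GMNN), where 5.72% of all genes passed higher and 14.1% lower. The share of members that passed was therefore near the background on the higher side and below it on the lower side. This split moved with the scaling. With arrays scaled to ribosomal protein genes, which moved the median of all genes to 0.139, 13 members passed higher and 0 lower, where 23% and 7.44% of all genes did. With arrays centred on their medians, which moved it to -0.0622, 2 passed higher and 6 lower (3.48% and 18.6% of all genes). After quantile normalization the counts were 5 and 1 (5.17% and 10.7% of all genes), and after cyclic loess normalization 6 and 0 (5.11% and 9.98% of all genes). Of the 4 largest positive differences, CDC6 and MCM10 act in loading and starting the helicase, E2F1 in transcription and CHAF1A in chromatin assembly. Of the 4 most negative, PRIM1 acts in priming, TYMS and RRM2 in nucleotide supply and GMNN in holding back licensing. No test of one role against another was run.

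**Figure D1:**
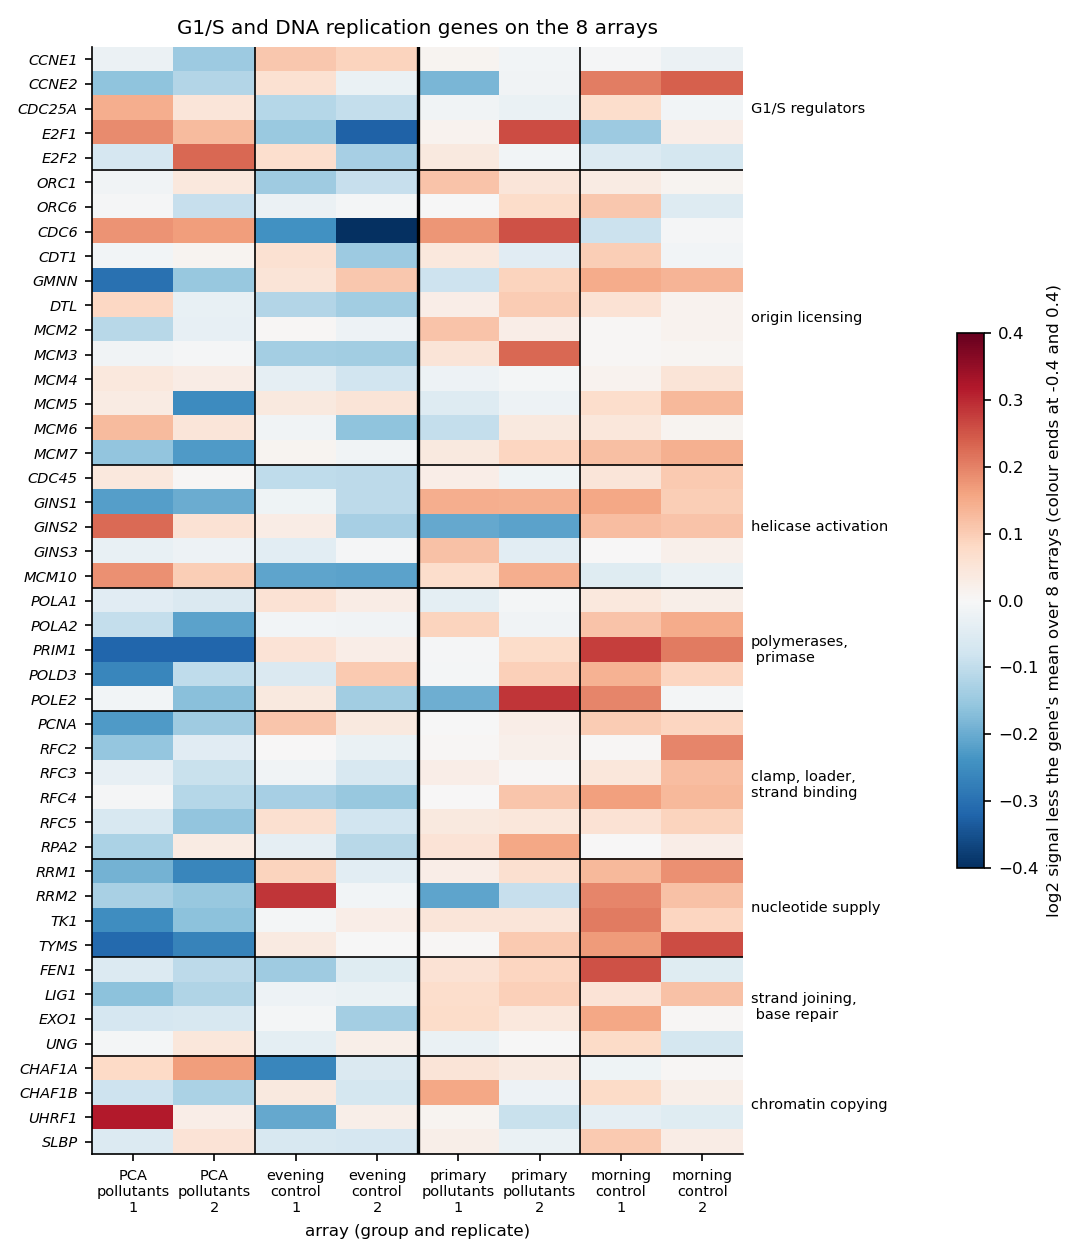
Log2 signal of the 45 genes (rows, by role) on each of the 8 arrays (columns, by group and replicate), less each gene's mean over the 8 arrays. CDC6, MCM10 and E2F1 are red on both PCA pollutant arrays and blue on both evening control arrays, and the 4 nucleotide supply genes are blue on both PCA pollutant arrays and red on both morning control arrays.

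Among the G1/S regulators, E2F1, the activator that switches on many of the other members, had a log2 signal of 8.63 and 8.57 in PCA pollutants, against 8.29 and 8.12 in the evening control. The arrays of these groups did not overlap, and the difference was 0.39 ± 0.111 (SE), a 1.31-fold ratio (adjusted p = 0.0452). On the primary pollutant arrays E2F1 stood at 8.45 and 8.70, against 8.30 and 8.47 in the morning control, which overlap. CDC25A, a phosphatase that activates the cyclin-dependent kinases, averaged 7.05 ± 0.07 in PCA pollutants and 6.85 ± 0.0143 in the evening control (SD, n = 2 each), with arrays that did not overlap (0.20 ± 0.0724, adjusted p = 0.0863).

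The cyclins E did not follow E2F1. CCNE1 had 8.66 and 8.54 in PCA pollutants, against 8.79 and 8.77 in the evening control (-0.18 ± 0.072, adjusted p = 0.109). CCNE2 had the smallest p of all members for primary pollutants, with 6.63 and 6.80 there and 7.02 and 7.06 in the morning control (-0.32 ± 0.082, adjusted p = 0.45). Its PCA pollutant arrays, at 6.66 and 6.70, also lay below the evening control at 6.88 and 6.79 (-0.16 ± 0.0821). E2F2, another activator, had overlapping arrays in the PCA comparison (0.11 ± 0.112).

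CDC6, which loads the MCM helicase and is itself an E2F target, had the largest positive difference of the 45 genes in both exposures. Its log2 signal was 10.16 and 10.15 in PCA pollutants, against 9.74 and 9.53 in the evening control, and 10.15 and 10.23 in primary pollutants, against 9.89 and 9.97 in the morning control. All 4 exposed arrays were above all 4 control arrays, and the exposed groups were at nearly the same level while the evening control was the lowest of the 4 groups. The difference was 0.52 ± 0.0882, or 1.43-fold, for PCA pollutants (adjusted p = 0.00895) and 0.26 ± 0.088 for primary pollutants (adjusted p = 0.501). Set against the morning control instead, the PCA pollutant arrays differed by 0.22 ± 0.0882 (adjusted p = 0.113). CDC6 passed the 1.5-fold limit under 4 alternatives, with 0.66 when arrays were scaled to ribosomal protein genes, 0.61 after quantile normalization, 0.65 after cyclic loess normalization and 0.62 without evening control replicate 1, and its adjusted p was 0.0613 without evening control replicate 2.

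GMNN encodes geminin, which holds back CDT1 so that origins are not loaded again, and its levels ran opposite to those of CDC6 in PCA pollutants. It had 7.91 and 8.06 there, against 8.26 and 8.32 in the evening control (-0.30 ± 0.0879, adjusted p = 0.0476). The primary pollutant arrays, at 8.12 and 8.30, were just below the morning control arrays, at 8.35 and 8.34 (-0.14 ± 0.0878). CDT1 itself had overlapping arrays in each of these comparisons.

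The 6 subunits of the MCM helicase did not all differ in 1 direction. For PCA pollutants less evening control they ran from -0.19 for MCM7 and -0.16 for MCM5 to 0.13 for MCM3 and 0.18 for MCM6, and none passed the adjusted p. MCM7 had 9.71 and 9.64 in PCA pollutants, against 9.88 and 9.85 in the evening control (adjusted p = 0.0847). MCM5 was lower on all 4 exposed arrays than on all 4 control arrays, with 9.51 and 9.23 in PCA pollutants, 9.52 and 9.53 in the evening control, 9.43 and 9.46 in primary pollutants and 9.55 and 9.61 in the morning control, though the gap in the evening was smaller than the spread of the PCA pair. The origin recognition genes ORC1 (0.13) and ORC6 (-0.03) and the ubiquitin ligase adaptor DTL (0.15), which has CDT1 degraded in S phase, did not pass either. The sign of the difference for MCM2, MCM3, ORC1, ORC6, CDT1 and DTL changed under at least 1 alternative.

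Of the genes that activate the helicase, MCM10 had 8.81 and 8.72 in PCA pollutants, against 8.41 and 8.41 in the evening control, and 8.69 and 8.77 in primary pollutants, against 8.57 and 8.60 in the morning control. As for CDC6, every exposed array was above every control array, and the evening control was lowest. The difference was 0.35 ± 0.0707 for PCA pollutants (1.28-fold, adjusted p = 0.0151), 0.15 ± 0.0707 for primary pollutants (adjusted p = 0.625) and 0.18 ± 0.0708 for PCA pollutants against the morning control (adjusted p = 0.11).

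GINS2, a subunit of the GINS complex that binds the helicase with CDC45, differed most between the exposures. It had 8.79 and 8.62 in PCA pollutants, against 8.59 and 8.43 in the evening control, and 8.36 and 8.35 in primary pollutants, against 8.68 and 8.67 in the morning control. Both PCA pollutant arrays were thus above their controls and both primary pollutant arrays below theirs. The PCA response exceeded the primary response by 0.52 ± 0.125 (adjusted p = 0.108), and this did not pass, although it did with a minimum signal of 100 (adjusted p = 0.0484) or a trended and robust prior (adjusted p = 0.022). No member was called in the difference between the responses, where 0.439% of all genes were. At an unadjusted p under 0.05, GINS2 and CDC25A (0.25 ± 0.102, adjusted p = 0.261) were higher and no member was lower, where 6.2% and 11.4% of all genes were. The other GINS subunits did not share this pattern: GINS1 differed by -0.15 and 0.02 for PCA and primary pollutants, and GINS3 had overlapping arrays in both.

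**Figure D2:**
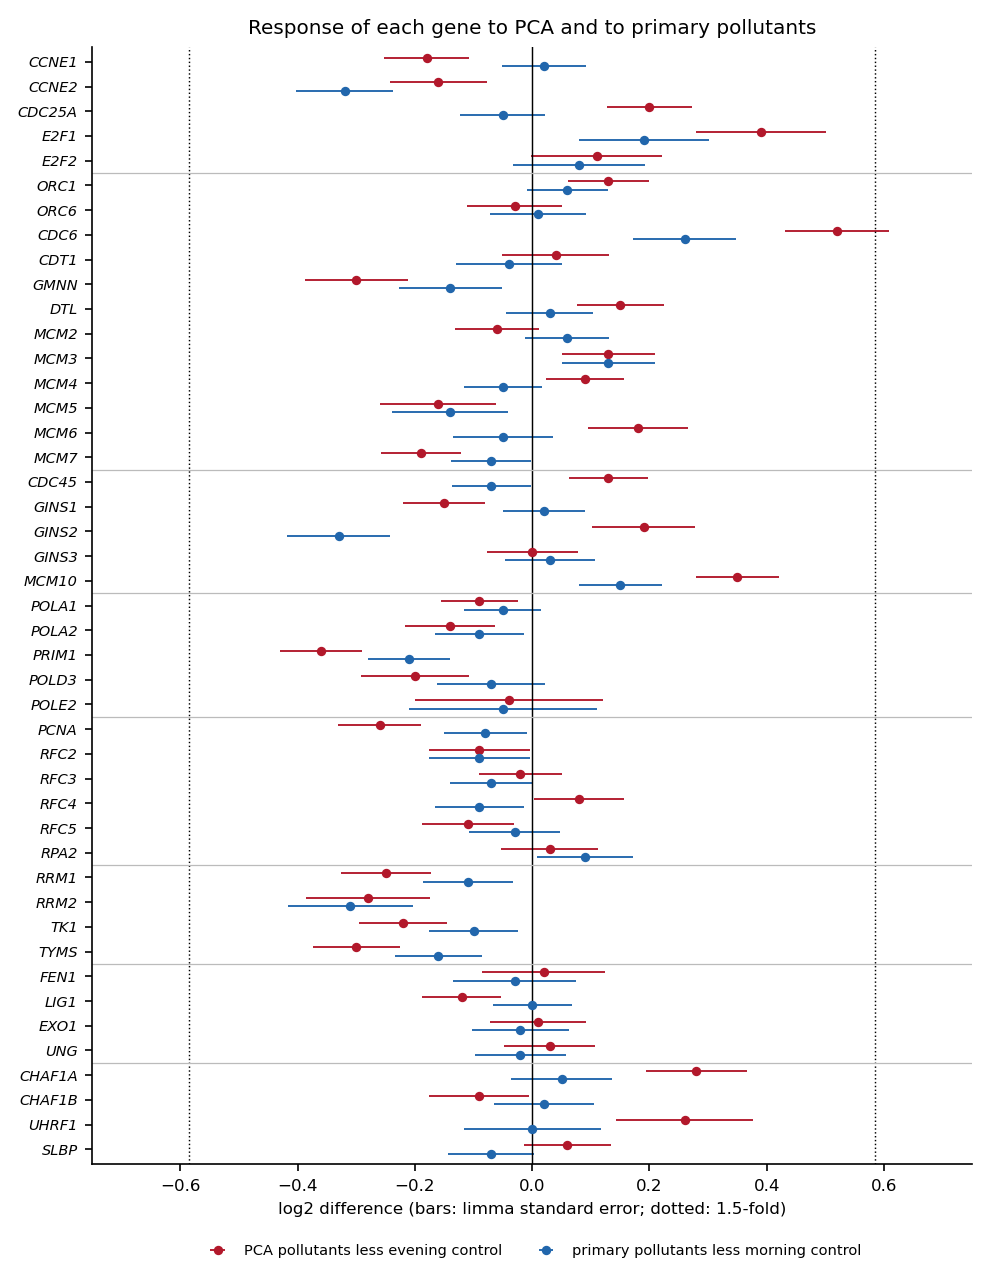
Log2 difference of each gene for PCA pollutants less evening control and for primary pollutants less morning control (points, with the limma standard error as bars), by role from the G1/S regulators at the top to chromatin copying at the bottom. No point lies beyond the dotted lines at 1.5-fold, and CDC6 (0.52) comes nearest.

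The 5 polymerase and primase genes all had negative differences in both exposures. Of all genes, 50.3% were negative for PCA pollutants and 52.6% for primary pollutants. The medians of the 5 were -0.143 for PCA pollutants and -0.0686 for primary pollutants, against -0.00169 and -0.00724 over all genes. Scaling to ribosomal protein genes moved all genes alike, and the medians of all genes to 0.139 and 0.0881. Under that scaling only 3 of the 5 and 1 of the 5 were negative. PRIM1, the catalytic primase subunit that makes the RNA primer, led them with 9.12 and 9.13 in PCA pollutants, against 9.50 and 9.47 in the evening control (-0.36 ± 0.0701, 0.78-fold, adjusted p = 0.0141). Its primary pollutant arrays, at 9.44 and 9.52, were below the morning control arrays, at 9.72 and 9.65 (-0.21 ± 0.0701, adjusted p = 0.501). The polymerase alpha subunit POLA1 had all 4 exposed arrays below all 4 controls, by small amounts (-0.09 and -0.05), and POLA2 (-0.14), POLD3 (-0.20) and POLE2 (-0.04) did not pass for PCA pollutants.

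PCNA, the sliding clamp, had 11.46 and 11.55 in PCA pollutants, against 11.80 and 11.73 in the evening control, and 11.69 and 11.72 in primary pollutants, against 11.79 and 11.78 in the morning control. Both controls were at nearly the same level, and all exposed arrays were below them. The difference was -0.26 ± 0.0709 (0.835-fold, adjusted p = 0.0401) for PCA pollutants and -0.08 ± 0.0708 for primary pollutants. The subunits of the clamp loader were near 0 for PCA pollutants, from -0.11 for RFC5 to 0.08 for RFC4, as was the single strand binding subunit RPA2 (0.03).

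All 4 genes of deoxynucleotide supply had both PCA pollutant arrays below both evening control arrays, where 36.6% of all genes did. All 4 also had both primary pollutant arrays below both morning control arrays, where 21.7% of all genes did. Their 4 differences stayed negative for each exposure under every scaling tried. Set against the evening control instead, primary pollutants gave positive differences for RRM1 (0.02), TK1 (0.04) and TYMS (0.04). The median was -0.262 for PCA pollutants and -0.135 for primary pollutants. TYMS, thymidylate synthase, had 9.97 and 10.01 in PCA pollutants, against 10.31 and 10.28 in the evening control (-0.30 ± 0.0744, adjusted p = 0.0289). It was the only gene of the 4 to pass the adjusted p.

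RRM1, the large subunit of ribonucleotide reductase, had 10.12 and 10.06 in PCA pollutants and 10.40 and 10.27 in the evening control (-0.25 ± 0.0766, adjusted p = 0.0576). RRM2, the small subunit, had 8.85 and 8.83 in PCA pollutants, against 9.27 and 8.97 in the evening control (-0.28 ± 0.106, adjusted p = 0.102). It had 8.77 and 8.89 in primary pollutants, against 9.18 and 9.10 in the morning control (-0.31 ± 0.106, adjusted p = 0.501). For RRM2 the difference between the responses was 0.03 ± 0.15. TK1, thymidine kinase, differed by -0.22 ± 0.0754 for PCA pollutants (adjusted p = 0.0801) and -0.10 ± 0.0754 for primary pollutants.

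The genes that finish the new strand and rebuild chromatin gave few differences. The flap nuclease FEN1, the exonuclease EXO1 and the uracil glycosylase UNG lay between 0.01 and 0.03 for PCA pollutants, with overlapping arrays, and the ligase LIG1 was at -0.12 ± 0.0675 (adjusted p = 0.236). CHAF1A, the large subunit of the histone chaperone that acts behind the fork, had 8.89 and 8.98 in PCA pollutants, against 8.55 and 8.75 in the evening control (0.28 ± 0.0861, adjusted p = 0.0556), while its partner CHAF1B was at -0.09. UHRF1, which maintains DNA methylation on new strands, had 8.68 and 8.39 in PCA pollutants and 8.16 and 8.38 in the evening control (0.26 ± 0.117), so that the difference rested on 1 array of each group. SLBP, the histone mRNA binding protein, was at 0.06.

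**Figure D3:**
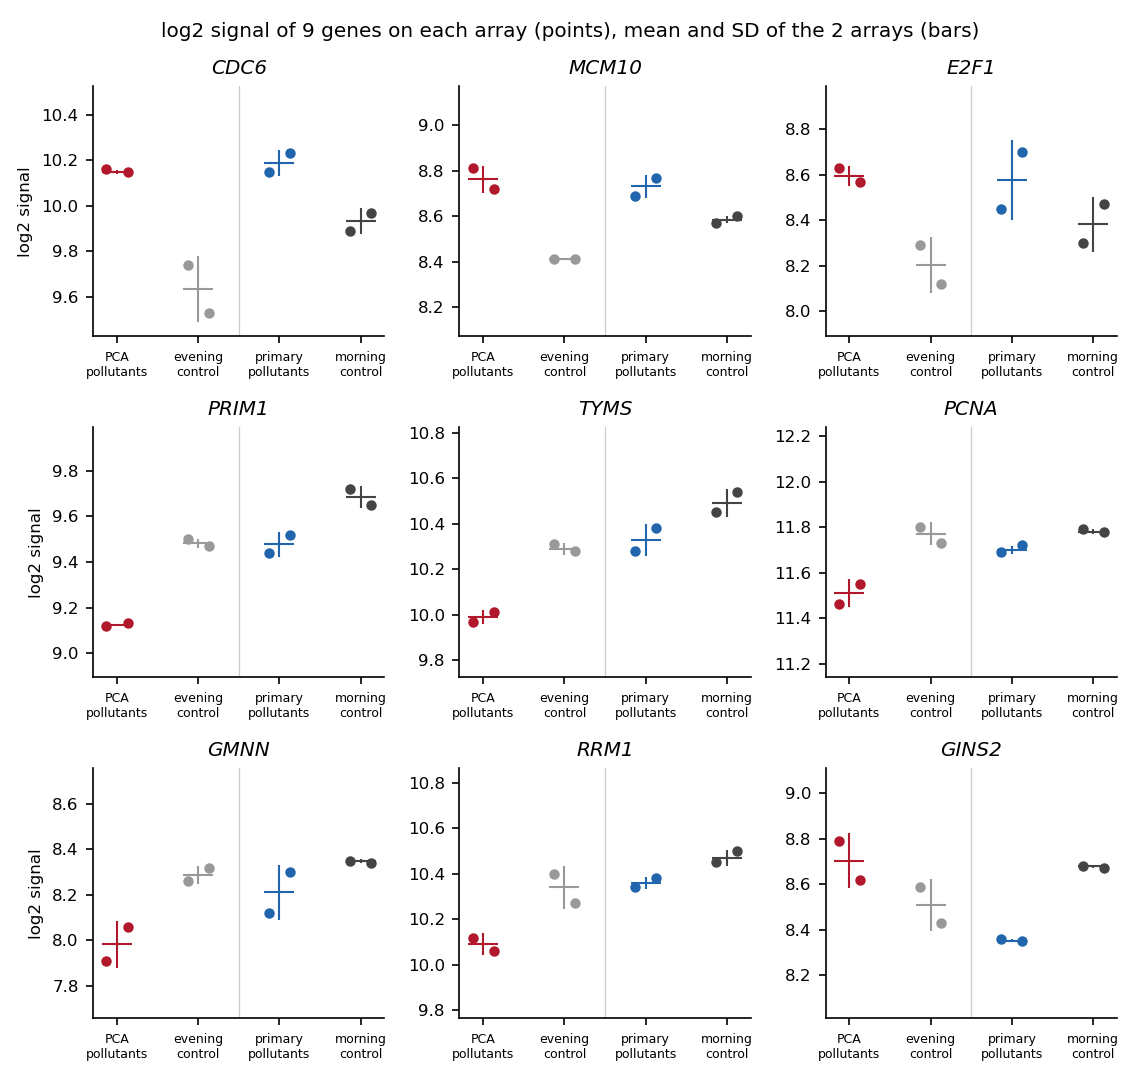
Log2 signal of 9 genes on each array (points), with the mean and SD of the 2 arrays of each group; each panel spans the same range of log2 signal. For CDC6 and MCM10 the exposed groups are alike and the evening control is lowest, for PRIM1 and TYMS the PCA pollutant arrays are lowest and the morning control highest, and for GINS2 the primary pollutant arrays are lowest.

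Which control is used matters for these genes. With the morning control in place of the evening control, PCA pollutants gave 11 positive and 34 negative differences, with a median of -0.0827 where all genes were at 0.000472. There 0 members passed the adjusted p higher and 10 lower, where 6.03% and 14.1% of all genes did. PRIM1 was then at -0.56 ± 0.0702 (adjusted p = 0.00451), TYMS at -0.50 ± 0.0744 (adjusted p = 0.00666) and RRM1 at -0.38 ± 0.0766 (adjusted p = 0.0167). The positive differences of CDC6, MCM10 and E2F1 (0.21 ± 0.111, adjusted p = 0.196) did not pass there, while PCNA (-0.28 ± 0.0709, adjusted p = 0.0327) and GMNN (-0.37 ± 0.0879, adjusted p = 0.0277) did. Single arrays also mattered for the 7 members that passed against the evening control. Fewer of them passed when any 1 evening control, PCA pollutant or morning control array was left out, though all 7 kept their sign. A morning control array enters that comparison only through the shared estimate of the spread, not through the differences.

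Primary pollutants called none of the 45 genes, where 0% of all 17381 genes were called. The member median was -0.0476, against -0.00724 over all genes, with 16 positive and 29 negative differences, where 52.6% of all genes were negative. At an unadjusted p under 0.05, CDC6 was higher and CCNE2, GINS2, PRIM1 and RRM2 were lower, where 3.29% of all genes were higher and 4.67% lower. The 2 primary pollutant arrays were both below both morning control arrays for 20 members and both above for 8, where 21.7% and 17% of all genes were. Counted over both exposures, CDC6, MCM10 and CHAF1A had all 4 exposed arrays above all 4 control arrays (4.82% of all genes) and MCM5, POLA1, PCNA and RRM2 all 4 below (9.58% of all genes).

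The controls themselves differed. Evening control less morning control, a comparison of unexposed cells at different times of day and in different runs, was negative for 42 of the 45 genes, where 48.7% of all 17310 genes tested were negative. The member median was -0.133, against 0.00337 over all genes. Both evening control arrays were below both morning control arrays for 31 members (19.7% of all genes) and above them for 1, CCNE1 (22.1% of all genes). None was called (0% of all genes), with adjusted p-values of 0.999 throughout, and at an unadjusted p under 0.05 8 were lower and 0 higher, where 2.18% of all genes were lower and 2.91% higher.

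These 8 came from 6 of the 8 roles, with none from strand joining or chromatin copying. RFC4, a clamp loader subunit, had the smallest p, with 8.63 and 8.61 in the evening control, against 8.93 and 8.89 in the morning control (-0.29 ± 0.076). CDC6 was at -0.30 ± 0.088, PRIM1 at -0.20 ± 0.07 and GINS1 at -0.19 ± 0.0696. TYMS, CDC45, CCNE2 and MCM10 lay between -0.20 and -0.18. The exceptions with a positive difference were CCNE1 (0.11 ± 0.0719), E2F2 (0.03) and POLA1 (0.01).

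By role, all 12 origin licensing genes, all 5 helicase activation genes, all 6 clamp, loader and strand binding genes and all 4 genes each of nucleotide supply, strand joining and chromatin copying were negative, and the role medians ran from -0.175 for helicase activation to -0.0994 for chromatin copying. Scaling to ribosomal protein genes left 29 of the 45 negative and 7 of the 12 licensing genes, with a member median of -0.0456 where all genes were at 0.091. This scaling shifts every gene by the same amount, so it leaves the distance between the members and all genes as it was. Without morning control replicate 1 the median was -0.0973 and without evening control replicate 2 it was -0.0979, with 39 members negative in each.

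**Figure D4:**
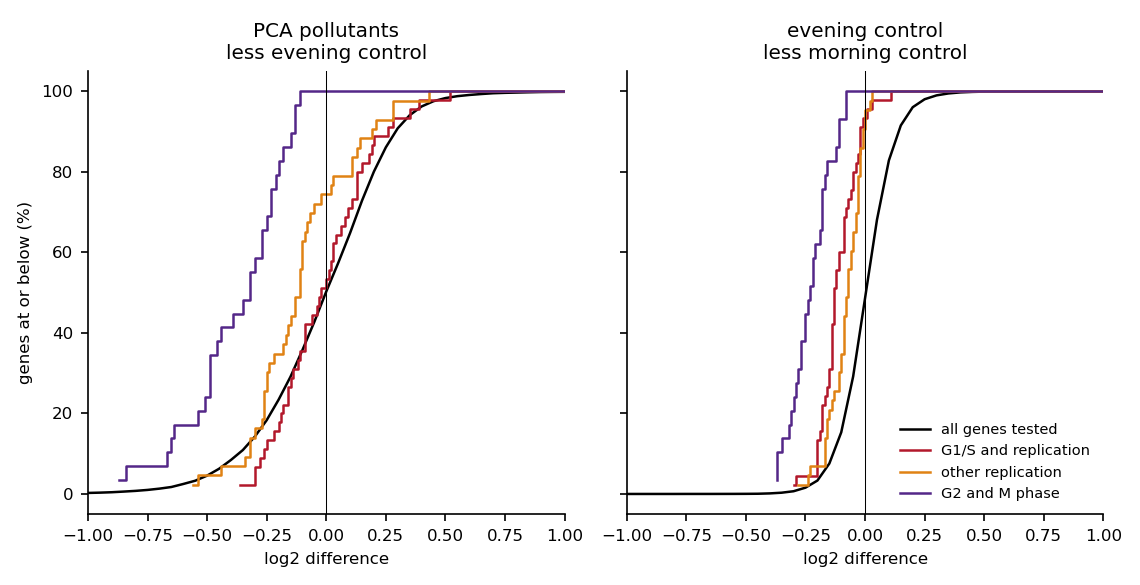
Share of genes at or below each log2 difference, for PCA pollutants less evening control (left) and evening control less morning control (right), for all genes tested, the 45 G1/S and DNA replication genes, 43 other replication genes and 29 G2 and M phase genes. On the right the 45 genes lie left of all genes, with 42 of 45 below 0; on the left they lie close to all genes; both panels use the evening control arrays, and on scaling to ribosomal protein genes 29 of 45 stay below 0 on the right.

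The response and the difference between controls share the evening control arrays, so that a low evening control raises one and lowers the other, and their values can only be set side by side. With the response to PCA pollutants first and the difference between controls after it, CDC6 had 0.52 and -0.30, MCM10 0.35 and -0.18, E2F1 0.39 and -0.18, and CHAF1A 0.28 and -0.15. Both values were negative for other genes, with -0.36 and -0.20 for PRIM1, -0.30 and -0.20 for TYMS and -0.25 and -0.13 for RRM1. The values were -0.26 and -0.02 for PCNA and -0.28 and -0.02 for RRM2, of which only PCNA passed the adjusted p for PCA pollutants. For CCNE1 (-0.18 and 0.11) and POLA1 (-0.09 and 0.01) the signs differed.

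The wider replication machinery behaved in part like the members. Of 43 other replication genes with a probe set, none was called for PCA pollutants, where 3.53% of all genes were. Negative were 32 (50.3% of all genes). The median was -0.114, though it was 0.0275 under scaling to ribosomal protein genes, where all genes were at 0.139. Without the fold limit, 2 passed the adjusted p higher and 7 lower, where 5.72% and 14.1% of all genes did. The smallest p belonged to POLD4, a small subunit of polymerase delta (-0.56 ± 0.0739, adjusted p = 0.00405). DONSON, a replication fork protein, was at -0.54 ± 0.104 (adjusted p = 0.0132), the histone chaperone ASF1B at -0.44 ± 0.102 (adjusted p = 0.0241) and the alternative clamp loader CHTF18 at 0.43 ± 0.0818 (adjusted p = 0.0133). Between the controls, 40 of the 43 were negative (48.7% of all genes), with a median of -0.0674, and 18 of 43 under scaling to ribosomal protein genes.

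Among the other E2F factors, their partners and their regulators the picture was mixed. Of 17 genes of the Rb family and other E2F and DP factors, 1 was called for PCA pollutants, where 3.53% of all genes were. This was TFDP2, one of the DP factors that pair with E2F to bind DNA. It fell to 8.55 and 8.60 in PCA pollutants, against 9.41 and 9.43 in the evening control (-0.84 ± 0.0978, adjusted p = 0.00261). RBL2, the Rb relative that represses E2F genes in resting cells, was at -0.43 ± 0.0866 (adjusted p = 0.0154). Of 17 G1 cyclins, kinases and inhibitors none was called. The kinase inhibitor CDKN1B was at -0.47 ± 0.0968 (adjusted p = 0.0169), FBXW7, which has cyclin E degraded, at -0.57 ± 0.12 (adjusted p = 0.0172), CCND1 (cyclin D1) at 0.41 ± 0.0962 (adjusted p = 0.025) and the inhibitor CDKN2B at 0.37 ± 0.0805 (adjusted p = 0.0205). Among 15 checkpoint and fork repair genes none was called. BARD1, the partner of BRCA1, was at -0.58 ± 0.0921 (adjusted p = 0.00704) and the kinase ATM at -0.52 ± 0.0884 (adjusted p = 0.00863). Without the fold limit, the Rb, E2F and DP list had 0 genes higher and 2 lower that passed the adjusted p. The counts were 2 and 2 for the G1 list and 0 and 2 for the checkpoint list. Of all genes, 5.72% passed higher and 14.1% lower.

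G2 and M phase genes, which act after replication, lay well below 0 in PCA pollutants. All 29 with a probe set were negative, where 50.3% of all genes were, with a median of -0.321 where the 45 members were at -0.0213. Under scaling to ribosomal protein genes 26 of 29 were negative. Called lower were 5 of the 29, where 2.66% of all genes were. These were ASPM (-0.87 ± 0.0798), NDC80 (-0.84), NUSAP1 (-0.67), KIF20A (-0.65) and CENPF (-0.64), which build or run the mitotic spindle and its attachments. Only ASPM and NDC80 stayed called after scaling to ribosomal protein genes, quantile or cyclic loess normalization. Between the controls the G2 and M genes were negative in 29 of 29, where 48.7% of all genes were, with a median of -0.231 (27 of 29 and -0.143 under scaling to ribosomal protein genes). Thus in the comparison of controls both groups of genes were below 0, and in that of PCA pollutants the G2 and M genes lay further below 0 than the members; no test of one list against the other was run.

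**Figure D5:**
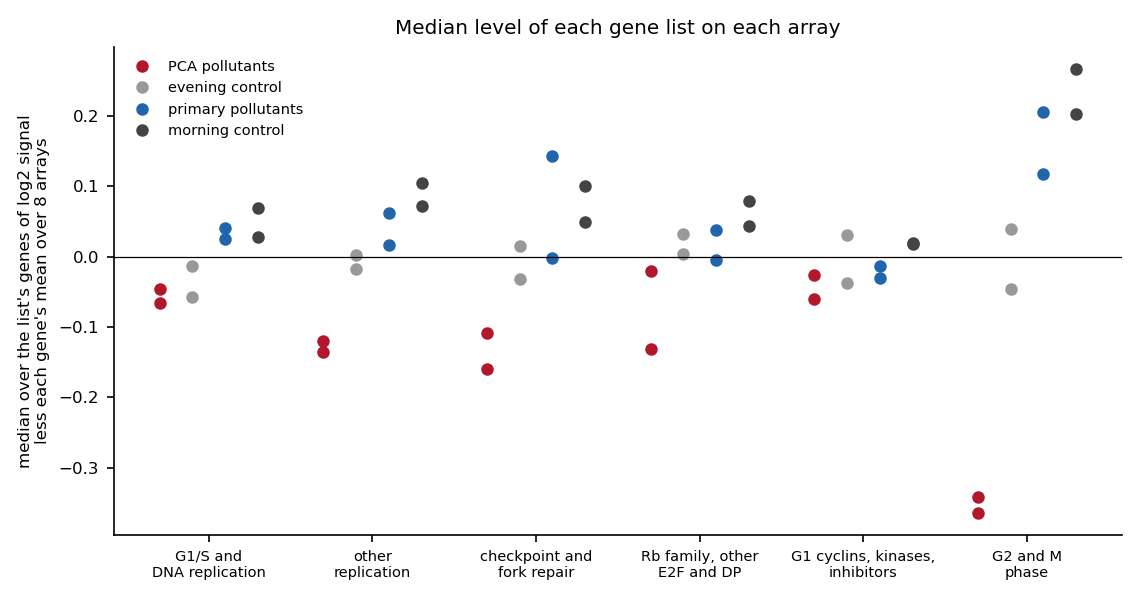
Median over the genes of each list of the log2 signal less each gene's mean over the 8 arrays, for each array (points), by group. For the 45 members the PCA pollutant arrays (-0.0462 and -0.0656) overlap the evening control arrays (-0.0138 and -0.0574), and the G2 and M phase genes show the widest range, from -0.364 in PCA pollutants to 0.266 in the morning control.

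Over whole arrays, correlations between any 2 arrays ran from 0.988 to 0.9965. The PCA pollutant arrays had a narrower spread of log2 signal, with interquartile ranges of 2.61 and 2.57, against 2.80 and 2.82 in the evening control, 2.69 and 2.78 in primary pollutants and 2.80 and 2.81 in the morning control, and its part in the results above was not tested beyond the normalizations given. All 8 epithelial and A549 markers and all 7 alveolar type II markers reached a signal of 30 on every array. So did 3 of 5 leukocyte, 4 of 6 fibroblast and 4 of 4 endothelial markers, so this limit does not separate the cell types. PTPRC, of leukocytes, and LUM, of fibroblasts, reached it on none. Of the fibroblast markers, the adjusted p for PCA pollutants was passed by the collagen genes COL1A1 (-0.37, adjusted p = 0.0156) and COL1A2 (0.28, adjusted p = 0.046) and by DCN (0.42, adjusted p = 0.0361), which reached the limit on 3 arrays. The fibroblast list summed to log2 signals of 9.32 to 9.38 in PCA pollutants and 9.39 to 9.40 in the evening control. In the same order, the endothelial list summed to 7.84 to 7.87 and 7.66 to 7.70. The alveolar type II list summed to 9.53 on both PCA pollutant arrays and to 9.45 to 9.50, and the leukocyte list to 8.19 to 8.27 and 8.15 to 8.26. The part of these markers in the results was not tested. Among the epithelial markers CDH1, which encodes E-cadherin, fell in PCA pollutants (-1.11, adjusted p = 0.000665). Summed over the list, the epithelial markers had log2 signals of 15.64 to 15.72 in PCA pollutants, 15.73 to 15.82 in the evening control, 15.62 to 15.79 in primary pollutants and 15.79 to 15.82 in the morning control.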

How the data were processed

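Gene expression of A549 cells was measured on 8 arrays in 4 groups. The authors deposited log2 signals after robust multichip average normalization, for which Partek 6.4 is named in the submitters' notes. Of 28869 probe sets, 19310 carry 1 gene symbol, 1752 several and 7807 none; names were updated by gene number to an annotation of GRCh38.p14. A gene's value is that of the probe set with the highest mean log2 signal. No counts underlie the values, and the number of arrays limits the precision (median standard error of the members 0.0779).

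Probe sets under a signal of 30 on every array of a comparison were left out. Means of the groups were fitted over all 8 arrays with lmFit and eBayes of limma 3.58.1 (R 4.3.3), with Benjamini-Hochberg adjustment over 25264 probe sets for PCA pollutants, 25040 for primary pollutants, 25412 for the difference of responses and 24914 for the controls. The limits of 1.5-fold and 0.05 are those of the study's methods, which set them on analysis of variance p-values and on q-values instead. The calls are therefore not the study's, which listed genes for primary pollutants where the fit used here called none. Fits were tested on simulated arrays. Replicate numbers come from the labels, and nothing there says that a number marks a shared well. Genes described in full were those called, the 4 highest and 4 lowest differences of each contrast, the smallest p of each role and, of the other lists, called genes and up to 4 of smallest p for PCA pollutants. The members and lists were chosen with earlier results of these data known. Alternatives covered normalization, filter, variance model, controls, pairing and each array left out. Figures were made in Python 3.11.15 with matplotlib 3.10.9. Some genes of the other lists were not analysed here.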

Additional observations from a re-analysis of the deposited data

Results flagged for a closer look

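ASPM, a spindle pole gene of the G2 and M phase list, differed between the exposures by a test of the difference itself. The PCA response less the primary response was -0.79 (limma, adjusted p = 0.0389), with 8.69 and 8.69 in PCA pollutants, against 9.61 and 9.51 in the evening control, and 9.58 and 9.69 in primary pollutants, against 9.78 and 9.66 in the morning control. CDH1, an epithelial marker, differed likewise by -0.70 (adjusted p = 0.0392), with 9.29 and 9.19 in PCA pollutants, against 10.35 and 10.35 in the evening control, and 9.70 and 9.71 in primary pollutants, against 10.15 and 10.08 in the morning control. Neither passed when any 1 of the 8 arrays was left out, with the replicate number as a block, with no filter on low signal, under limma's treat against 1.5-fold or after cyclic loess normalization, and CDH1 also did not with arrays scaled to ribosomal protein genes or after quantile normalization. None of the 45 G1/S and DNA replication genes passed this test.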

How the results depend on the processing

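The members called stayed at 0 for primary pollutants over 24 alternatives, for the difference between the responses over 21 and between the controls over 22. For PCA pollutants the count was 1 (CDC6) with arrays scaled to ribosomal protein genes, after quantile or cyclic loess normalization and without evening control replicate 1, ran from 0 to 1 with 1 array left out, and was 7 with no fold limit. The member median for PCA pollutants was -0.0819 with arrays centred on their medians, 0.12 with ribosomal scaling, -0.0827 with the morning control, -0.0732 with pooled controls, 0.0453 after quantile and 0.046 after cyclic loess normalization, and -0.0586 to -0.00505 with 1 array left out. For primary pollutants it was 0.0477 with ribosomal scaling, 0.0543 with the evening control and 0.0083 with pooled controls, and -0.0639 to -0.0326 with 1 array left out. For the difference between responses it was -0.0352 with centred arrays, 0.0532 with ribosomal scaling, 0.0767 and 0.0893 after quantile and cyclic loess normalization, and -0.0194 to 0.0366 with 1 array left out. Between the controls it was -0.0456 with ribosomal scaling and -0.144 to -0.0973 with 1 array left out. Ribosomal scaling moved the median of all genes to 0.139, 0.0881 and 0.091 for PCA pollutants, primary pollutants and the controls. The cause of the other shifts was not tested.

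Replicate numbers do not pair the samples, since deviations of equally numbered arrays correlated at 0.0263 between PCA pollutants and evening control, -0.0978 between primary pollutants and morning control and 0.06 between the controls. With the replicate number as a block, 0 members were called in each contrast, and 2 higher and 3 lower passed the adjusted p alone for PCA pollutants. The 7 members that passed it in that contrast kept their sign in all 21 refitted alternatives, CDC6 passing in 19, MCM10 in 17, PRIM1 in 16, TYMS in 12, E2F1 and GMNN in 10 and PCNA in 9. Quantile and cyclic loess normalization were added after seeing the data.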
